A study of Mus musculus with 20 samples.

Results

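The 9 genes described here cover the steps by which a cell takes up vitamin A, turns it into retinoic acid, destroys it again and reads it in the nucleus. They are Rbp7, Crabp2, Stra6, Aldh1a1, Aldh1a2, Dhrs3, Cyp26b1, Rarb and Rxrg, taken by symbol from the 55367 genes that the count files list. All 9 were found. Polyadenylated RNA of the left atrium and of the left ventricle was sequenced from newborn C57BL/6J mice on postnatal day 4, in 20 libraries that form 4 groups of 5. Pups had breathed either room air with 21% oxygen or hyperoxia with 100% oxygen from birth, and the groups were room air left atrium, hyperoxia left atrium, room air left ventricle and hyperoxia left ventricle. No group carried a transgene or a drug. Dams were exchanged between the oxygen levels every 24 hours per the labels, and each number in a group stands for 1 mouse. The comparisons ask how the genes of this pathway differ with neonatal hyperoxia in each chamber, whether the chambers respond alike, and how the chambers differ from each other.

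Retinol travels in blood bound to retinol binding protein and enters cells through the membrane receptor encoded by Stra6. Inside the cell, small binding proteins carry it to dehydrogenases that oxidise it first to retinaldehyde and then, irreversibly, to retinoic acid, while reductases such as the product of Dhrs3 return retinaldehyde to retinol and cytochromes of the Cyp26 family break retinoic acid down. Retinoic acid acts on heterodimers of a retinoic acid receptor (RAR) and a retinoid X receptor (RXR), which sit on repeated short DNA elements and recruit corepressors or coactivators. In the developing heart the epicardium and the inflow region are known sources of retinoic acid, made there mainly by the enzyme that Aldh1a2 encodes.

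The DNA elements that RAR and RXR recognise are pairs of half-sites in the same orientation, called DR1, DR2 or DR5 after the number of bases between them. The half-sites searched were AGGTCA and its variant GGGTCA, together with AGTTCA and its variant GGTTCA, on both strands and with exact matches, in windows from 250 bases before to 50 bases after each RefSeq transcript start on GRCm38.p6. Such windows were given for 8 of the 9 genes, with 15 starts in all, and Crabp2 was not analysed here. Only 1 of the 15 windows held a match, a DR5 at a transcript start of Rarb, the receptor gene best known as a direct target of its own ligand. This transcript start lies inside the annotated gene, which spans chr14:16430839-16819156. A DR5 of this kind was present in 32 of 32851 windows of all genes, or 0.0974%, against 0.222% for DR1 and 0.268% for DR2. The upstream bases of 3 members are shown as a description, and no expression result below rests on them. In Rarb the capitals mark the DR5, which reads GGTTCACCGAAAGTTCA, lies 53 to 37 bases before this transcript start on the strand of the gene and spans chr14:16575513-16575529. The stretches of Rbp7 (chr4:149454969-149455218, minus strand) and Cyp26b1 (chr6:84593811-84594060, minus strand) hold none of the 3 repeats, as lower case throughout shows. The Rarb stretch is chr14:16575477-16575726, minus strand. All are written from 5′ to 3′.
Rarb: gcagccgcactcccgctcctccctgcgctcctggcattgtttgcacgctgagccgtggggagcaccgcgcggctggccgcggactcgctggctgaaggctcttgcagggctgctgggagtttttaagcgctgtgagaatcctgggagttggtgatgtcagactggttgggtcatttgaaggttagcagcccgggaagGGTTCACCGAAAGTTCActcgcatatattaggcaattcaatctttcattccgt
Rbp7: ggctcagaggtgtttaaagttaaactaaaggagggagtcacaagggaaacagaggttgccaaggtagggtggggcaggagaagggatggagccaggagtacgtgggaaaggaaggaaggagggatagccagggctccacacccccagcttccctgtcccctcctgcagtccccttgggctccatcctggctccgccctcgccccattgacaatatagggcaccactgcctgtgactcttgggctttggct
Cyp26b1: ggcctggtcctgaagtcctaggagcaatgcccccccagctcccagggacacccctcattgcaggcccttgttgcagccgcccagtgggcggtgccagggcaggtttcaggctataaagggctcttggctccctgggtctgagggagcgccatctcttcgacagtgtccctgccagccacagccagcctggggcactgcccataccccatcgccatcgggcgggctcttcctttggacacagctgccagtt
A match of letters is a description of the sequence, and binding was not measured.

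Libraries held 26510081 to 38244117 counted reads. Values are CPM, a gene's counts relative to the size of its library, with library sizes scaled by the trimmed mean of M values, and log2 differences, standard errors (SE) and adjusted p come from edgeR's quasi-likelihood test over the 16598 genes that passed a filter on low counts. The threshold for passing was an adjusted p of 0.05. Several measured features of the libraries move with the groups. Reads of Y-linked genes outnumbered those of Xist in 5 of 5 libraries of both room air groups, but in 1 of 5 hyperoxia atria (library 2) and in 2 of 5 hyperoxia ventricles (libraries 2 and 6), so sex and oxygen are nearly confounded. Hyperoxia atria 2 and 4 and room air ventricle 4 were tilted towards short transcripts, with length slopes of -0.296, -0.291 and -0.226 against -0.071 to 0.136 in the other libraries. By group the slope was 0.006 to 0.136 in room air atria and -0.296 to 0.069 in hyperoxia atria. It was -0.226 to 0.025 in room air ventricles and 0.038 to 0.099 in hyperoxia ventricles, without overlap. Since the slope moves with oxygen, a fit that holds it may also remove part of an oxygen difference, and the 2 cannot be told apart. Myl7, an atrial light chain gene, ranged from 19.5 to 530 CPM in room air ventricles and from 2.66 to 128 CPM in hyperoxia ventricles, against 4330 to 11400 CPM in the atria, so atrial transcripts were present in the ventricle libraries to varying degrees. Myl2, a ventricular light chain gene, was at 328 CPM in room air atrium 1 and at 5.59 to 22 CPM in the other atria. In the ventricles it was at 14300 to 28900 CPM, so some ventricular transcripts were present in room air atrium 1. Where a member's result changed in fits that left out the tilted libraries, left out 3 ventricles that lay apart (room air 1 and 4, hyperoxia 4), or took the length slope or the Y-linked reads as a covariate, the values are given beside it or, where only a sign turned, in the closing section. In whole tissue, fewer cells of a type and less RNA per cell cannot be told apart.

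**Figure D1:**
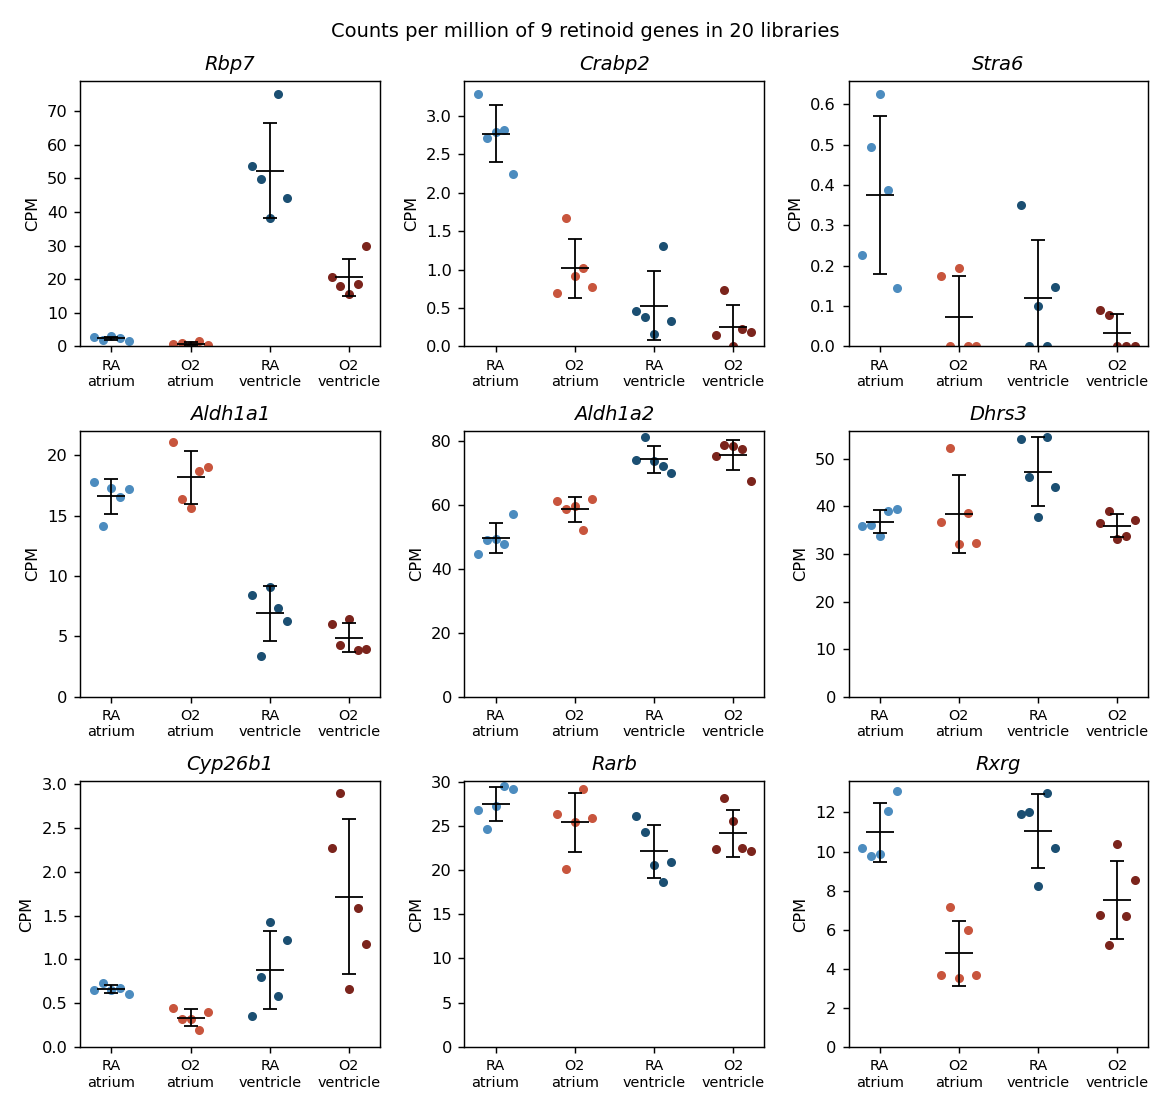
CPM (vertical axes, linear from 0) of the 9 genes in each library, with the group mean (long dash) and SD (bars, n = 5). RA is room air and O2 hyperoxia. Rbp7 is near the axis in both atrial groups and reaches 75.2 CPM in the ventricle, while Rxrg is at 3.52 to 7.14 CPM in hyperoxia atria and at 9.75 to 13.1 CPM in room air atria.

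Of the 8 members that passed the filter, 3 fell and 1 rose with hyperoxia in the left atrium (Rbp7, Crabp2 and Rxrg lower, Aldh1a2 higher). Of all genes tested there, 43.9% passed in either direction, 24.2% lower and 19.7% higher, so 4 of 8 is close to the share of genes in general. In the left ventricle 2 members fell, Rbp7 and Dhrs3, and 0 rose by edgeR, where 10.9% of all genes passed, 5.28% lower and 5.64% higher. At an unadjusted p under 0.05 there was 1 higher member, Cyp26b1, and limma voom called 1 higher and DESeq2 0. The groups did not overlap for 4 of 8 members in the atrium and for 1 of 8 in the ventricle, against 32.9% and 12.4% of all genes. The response differed between the chambers for 2 of 8 members, Dhrs3 and Cyp26b1, higher for the first and lower for the second, where it did for 36.5% of all genes, 17% higher and 19.5% lower. The median log2 difference of the 8 members was -0.54 in the atrium and -0.45 in the ventricle, beside medians of -0.063 and -0.006 over all genes. Stra6 had too few reads for the filter and is described by its counts.

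**Figure D2:**
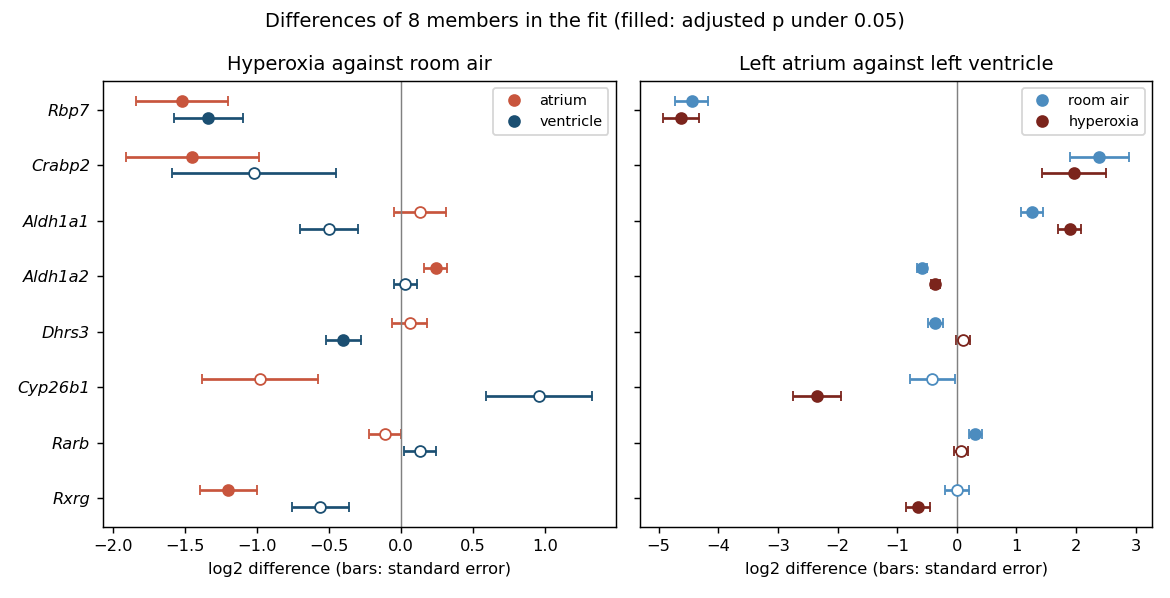
The log2 differences (horizontal axes) of the 8 members that passed the filter, with their standard errors as bars. Left, hyperoxia against room air in each chamber, and right, left atrium against left ventricle at each oxygen level. Filled points passed at an adjusted p under 0.05. Rbp7 lies below 0 in both panels, and Cyp26b1 is on opposite sides of 0 in the chambers under hyperoxia (-0.98 in the atrium and 0.96 in the ventricle, neither past the threshold).

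Rbp7 encodes a small cytoplasmic retinol binding protein known from capillary endothelium and fat, and lies at chr4:149449687-149454978. In room air atria 1 to 5 it was at 2.69, 1.88, 3.15, 2.43 and 1.76 CPM, and in hyperoxia atria 1 to 5 at 0.596, 1.05, 0.413, 1.76 and 0.456 CPM. Every hyperoxia atrium was below every room air atrium, although the highest of the former and the lowest of the latter both round to 1.76 CPM, and the tilted libraries 2 and 4 were the highest of the hyperoxia atria. Rbp7 fell by 1.52 on the log2 scale (SE 0.32, adjusted p = 0.00053), or 2.86-fold. Room air ventricles 1 to 5 held 53.8, 49.8, 38.2, 75.2 and 44.1 CPM, and hyperoxia ventricles 1, 2, 4, 5 and 6 held 20.8, 18.1, 15.6, 18.7 and 29.9 CPM. These groups were also apart, with the lowest room air ventricle above the highest hyperoxia ventricle. In the ventricle Rbp7 fell 2.53-fold (log2 -1.34, SE 0.24, adjusted p = 0.002). The difference between the 2 responses was -0.18 (SE 0.39, 95% interval -0.99 to 0.63, adjusted p = 0.75). Library 2 of the hyperoxia atria and libraries 2 and 6 of the hyperoxia ventricles, in which Y-linked reads prevailed as in room air, were also below all room air libraries of their chamber. The atrial decrease kept its call in all 33 other fits (-2.36 to -1.31). The ventricular one was -1.01 with an adjusted p of 0.061 without the 3 ventricles that lay apart, and -0.75 (adjusted p = 0.0031) in the fit that holds the length slope, where the difference between the chambers was -1.61 (adjusted p = 0.0016). That difference was -1.11 (adjusted p = 0.02) without the tilted libraries, -1.55 (adjusted p = 0.0033) with both covariates and -1.16 (adjusted p = 0.037) with limma voom.

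Beside this change, genes that mark capillary and general endothelium were lower as well. All 12 markers of that list were detected in every group, and their summed level was 1690 to 1870 CPM in room air atria and 1250 to 1400 CPM in hyperoxia atria, with 9 of 12 lower and 1 higher. In the ventricles the sum was 4850 to 5980 CPM in room air and 3620 to 4170 CPM in hyperoxia, with 6 of 12 lower. Over all genes tested, 24.2% were lower and 19.7% higher in the atrium, and 5.28% were lower in the ventricle. The 12 were Pecam1, Cdh5, Kdr, Cldn5, Esam, Gpihbp1, Tie1, Egfl7, Emcn, Cd36, Fabp4 and Aqp1. Fabp4 was the gene most like Rbp7 over the 20 libraries (Pearson r = 0.994), so part of the likeness between the sum and Rbp7 may be built in. Pecam1, a general endothelial adhesion gene, was at 347 ± 21 and 237 ± 32.9 CPM in the atria and at 317 ± 24 and 277 ± 7.8 CPM in the ventricles (room air and hyperoxia, SD, n = 5). The part of this shift in the Rbp7 result was not tested. None of the 4 adipocyte markers passed the filter, and their sum did not exceed 1.72 CPM in any library.

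**Figure D3:**
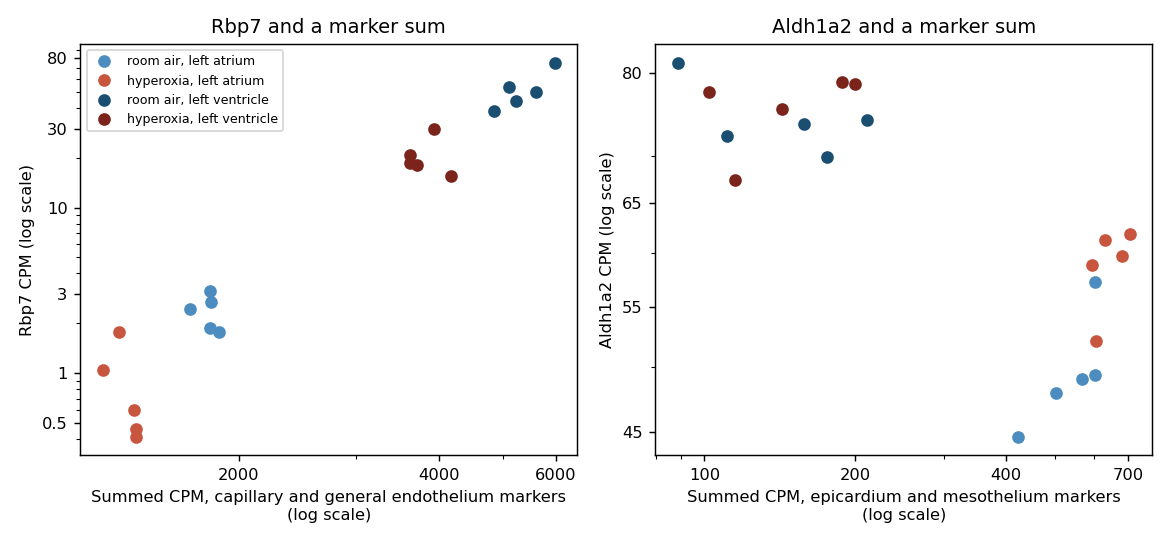
Left, Rbp7 CPM against the summed CPM of 12 capillary and general endothelium markers, and right, Aldh1a2 CPM against the summed CPM of 11 epicardium and mesothelium markers, 1 point per library (both axes logarithmic). Rbp7 is lowest where the endothelial sum is lowest, in the hyperoxia atria (1250 to 1400 CPM), whereas Aldh1a2 is higher in the ventricles, where the epicardial sum is 88.6 to 211 CPM, than in the atria, where it is 422 to 706 CPM. The endothelial sum includes Fabp4, the gene most like Rbp7 over these libraries.

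Crabp2 encodes the cellular retinoic acid binding protein that hands its ligand to the nuclear receptors, and lies at chr3:87948666-87953376. It was at 3.29, 2.71, 2.79, 2.82 and 2.25 CPM in room air atria 1 to 5 and at 0.695, 1.67, 0.923, 1.02 and 0.77 CPM in hyperoxia atria 1 to 5. The 2 groups did not overlap, and the hyperoxia atrium nearest to room air was library 2. Crabp2 fell 2.72-fold in the atrium (log2 -1.45, SE 0.46, adjusted p = 0.014). With the Y-linked reads as a covariate the difference was -0.59 with an adjusted p of 0.47, and with the length slope added it was -1.29 with an adjusted p of 0.13, so this decrease cannot be told apart from the sex difference between the groups. In the ventricle Crabp2 was sparse. Room air ventricles 1 to 5 held 0.468, 0.38, 0.166, 1.31 and 0.334 CPM and hyperoxia ventricles 1, 2, 4, 5 and 6 held 0.149, 0.735, 0, 0.227 and 0.183 CPM, where a count of 0 in library 4 allows up to 0.123 CPM. The groups overlapped widely and the difference did not pass (log2 -1.02, SE 0.57, adjusted p = 0.23), although it did without hyperoxia ventricle 2 (-1.83, adjusted p = 0.049).

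Stra6, the retinol uptake receptor (chr9:58063788-58153996), was near the limit of detection. Its raw counts in libraries 1 to 5 were 8, 21, 24, 15 and 5 in room air atria, a total of 73, and 7, 0, 8, 0 and 0 in hyperoxia atria, a total of 15. Room air ventricles gave 9, 0, 3, 0 and 4 reads, and hyperoxia ventricles 3, 2, 0, 0 and 0. Reads were thus present in all 5 room air atria and missing from some libraries of each other group, where 0 reads allow up to 0.085 to 0.0958 CPM in the hyperoxia atria. Without the filter, the atrial difference was -2.22 on the log2 scale (SE 0.9) with an edgeR adjusted p of 0.079 over 31728 genes, and the ventricular one -1.68 (SE 1.1, adjusted p = 0.41).

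Of the 9 genes in the list of carriers and uptake genes 4 passed the filter, of which 2 fell in the atrium, Rbp7 and Crabp2 (median log2 difference -0.75), and 2 fell in the ventricle, Rbp7 and Fabp5 (-0.89), beside 24.2% and 5.28% of all genes. Fabp5, a fatty acid carrier that can also bring retinoic acid to another nuclear receptor, was at 381 ± 36.2 and 369 ± 75.3 CPM in the atria and fell from 324 ± 71.6 to 191 ± 26.4 CPM in the ventricles (log2 -0.76, adjusted p = 0.0035). Rbp4, the serum carrier, was under 1 CPM in all libraries and did not pass in either chamber.

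Among the enzymes that make retinoic acid, Aldh1a2 encodes the main retinaldehyde dehydrogenase of the embryo and of the epicardium (chr9:71215789-71296243). It was at 44.7, 49, 49.3, 47.9 and 57.2 CPM in room air atria 1 to 5 and at 61.2, 58.8, 59.7, 52.1 and 61.8 CPM in hyperoxia atria 1 to 5. The ranges overlapped, since hyperoxia atrium 4 lay below room air atrium 5, and the other 4 hyperoxia atria were above all room air atria. Aldh1a2 rose 1.18-fold in the atrium (log2 0.24, SE 0.08, adjusted p = 0.014). With the Y-linked reads as a covariate the value was 0.22 and its adjusted p 0.09, and with no filter on low counts the adjusted p was 0.062. In the ventricles it was at 74.2, 81.3, 73.7, 72.3 and 69.9 CPM in room air and at 75.5, 78.8, 78.6, 77.6 and 67.4 CPM in hyperoxia. These ranges coincide, and the difference was 0.03 with a 95% interval of -0.13 to 0.18 (adjusted p = 0.85). The responses of the chambers differed by 0.22 (adjusted p = 0.12), and this passed in 7 of 33 other fits, among them the one that holds the length slope (0.35, adjusted p = 0.042) and those without hyperoxia ventricle 5 (0.3) or room air atrium 5 (0.27). Of 11 markers of epicardium and mesothelium, all detected in every group, 3 were higher and 1 lower with hyperoxia in the atrium, beside 19.7% and 24.2% of all genes. The sum of these markers was 422 to 602 CPM in room air atria and 593 to 706 CPM in hyperoxia atria. Whether the Aldh1a2 increase goes with more of those cells was not tested.

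Aldh1a1 encodes another retinaldehyde dehydrogenase and lies at chr19:20492715-20643465. Its values were 17.8, 14.1, 17.3, 16.5 and 17.2 CPM in room air atria and 21.1, 16.4, 15.6, 18.7 and 19 CPM in hyperoxia atria. The groups overlapped and the difference did not pass (log2 0.13, 95% interval -0.25 to 0.51, adjusted p = 0.6). Room air ventricles held 8.39, 3.34, 9.11, 7.35 and 6.27 CPM and hyperoxia ventricles 6.03, 4.26, 6.41, 3.83 and 3.91 CPM. Library 2 was the lowest of the room air ventricles, the groups overlapped, and the log2 difference of -0.5 (SE 0.2) had an adjusted p of 0.1, or 0.018 without room air ventricle 2.

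Dhrs3 encodes the reductase that returns retinaldehyde to retinol and is itself induced by retinoic acid in many tissues (chr4:144892827-144928209). Room air ventricles 1 to 5 were at 54.2, 46.2, 37.7, 54.6 and 44 CPM and hyperoxia ventricles 1, 2, 4, 5 and 6 at 36.6, 39.1, 33.2, 33.7 and 37.1 CPM. Only room air ventricle 3 lay within the range of the hyperoxia ventricles. Dhrs3 fell 1.32-fold in the ventricle (log2 -0.4, SE 0.12, adjusted p = 0.039), and the call was lost in 12 of 33 other fits, with -0.22 (adjusted p = 0.43) without the 3 ventricles that lay apart, -0.2 (0.16) holding the length slope, -0.22 (0.4) holding the Y-linked reads and -0.1 (0.56) with both covariates. Leaving out any of room air ventricles 1, 2 and 4 or hyperoxia ventricles 1, 4, 5 and 6 gave -0.41 to -0.34 with adjusted p of 0.057 to 0.11. In the atria it was at 35.9, 36, 33.7, 39 and 39.4 CPM in room air and at 36.8, 52.3, 32.1, 38.7 and 32.2 CPM in hyperoxia, with library 2 standing above the others. The atrial difference was 0.06 (SE 0.12, adjusted p = 0.71), and it was -0.08 without that library. The atrial response exceeded the ventricular one by 0.46 (SE 0.17, adjusted p = 0.039). That call was lost in 16 of 33 other fits, with values of 0.32 to 0.46 when room air atrium 1, 2 or 3, hyperoxia atrium 2 or 4, room air ventricle 1, 2 or 4 or hyperoxia ventricle 1 or 4 was left out, and the value was 0.21 (adjusted p = 0.25) without the 3 tilted libraries and 0.01 (adjusted p = 0.97) in the fit that holds the length slope. It was 0.28 (adjusted p = 0.25) without the 3 ventricles and 0.1 (adjusted p = 0.67) with both covariates.

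The list of synthesis and storage genes had 25 members, of which 19 passed the filter. In the atrium 8 rose and 2 fell (median log2 difference 0.13), and in the ventricle 2 rose and 1 fell (-0.08), where 43.9% and 10.9% of all genes passed in either direction. Rdh10, the main retinol dehydrogenase of development, rose in both chambers, from 6.59 ± 0.479 to 10.4 ± 1.03 CPM in the atrium (log2 0.66, adjusted p = 0.00022) and from 6.54 ± 0.944 to 8.85 ± 1.63 CPM in the ventricle (log2 0.43, adjusted p = 0.036). The atrial call was kept in 33 of 33 other fits and the ventricular one in 23, not without room air ventricle 1, 2 or 4 or hyperoxia ventricle 2 or 4 (0.35 to 0.42). The ventricular call was also lost with the Y-linked reads as a covariate and without the 3 ventricles that lay apart. So it was with no filter, with limma voom and with only the libraries compared. Over all other fits the ventricular value was 0.29 to 0.51, with adjusted p of up to 0.3. Aldh1a3, which encodes one more retinaldehyde dehydrogenase, rose from 7.49 ± 0.672 to 13.9 ± 4.43 CPM in the atrium (log2 0.89, adjusted p = 0.00024) and was at 3.04 ± 0.543 and 3.63 ± 0.538 CPM in the ventricles. Adh5 (log2 0.59), Rdh13 (0.28), Dgat1 (0.44), Lpl (0.55) and Dhrs9 (1.47) were the other genes that rose in the atrium, while Rdh5 (-0.78) and Lipe (-0.45) fell. Several of these serve other pathways as well: Adh5 clears formaldehyde, and Dgat1, Lpl and Lipe act on triglycerides. Rdh5 and Rdh13 share exonic bases with a neighbouring gene, so their reads may be in part those of the neighbour.

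Cyp26b1, a cytochrome that clears retinoic acid (chr6:84571414-84593908), was the member whose responses in the chambers lay furthest apart. Room air atria 1 to 5 held 0.652, 0.73, 0.651, 0.672 and 0.607 CPM and hyperoxia atria 1 to 5 held 0.447, 0.312, 0.316, 0.192 and 0.399 CPM. The groups did not overlap, yet with group totals of 126 and 62 reads the log2 difference of -0.98 (SE 0.4) missed the threshold at an adjusted p of 0.052. It passed without hyperoxia atrium 1 (-1.11, adjusted p = 0.044) and when any of room air ventricles 1, 3 and 4 or hyperoxia ventricles 2 and 4 was left out (adjusted p = 0.027 to 0.049), and without the 3 ventricles that lay apart (adjusted p = 0.0092). The value was nearer to 0 without the tilted libraries (-0.77, adjusted p = 0.19), with the Y-linked reads (-0.67, adjusted p = 0.33) or the length slope (-0.62, adjusted p = 0.3) held, and above all with both held (-0.11, adjusted p = 0.91). In the ventricles the values were 0.351, 0.797, 1.43, 0.575 and 1.22 CPM in room air and 2.27, 2.9, 0.658, 1.59 and 1.17 CPM in hyperoxia. The ventricular groups overlapped, with libraries 1 and 2 of hyperoxia the highest of all, and the difference of 0.96 (SE 0.37) had an adjusted p of 0.09, or 0.042 without hyperoxia ventricle 4 (1.17). The atrial response was below the ventricular one by a log2 difference of -1.94 (SE 0.55, 95% interval -3.07 to -0.81, adjusted p = 0.0089). The call held in 31 of 33 other fits and was lost with the length slope as a covariate (-1.3, adjusted p = 0.21), alone or together with the Y-linked reads (-1.05, adjusted p = 0.33). Cyp26a1, its relative, was under 2 CPM in all libraries and passed in neither chamber. With Cyp26c1 below the filter, 0 of the 2 degradation genes tested passed by edgeR in either chamber. At an unadjusted p under 0.05 it was 1 in each, Cyp26b1, and limma voom called 1 in each and DESeq2 1 in the atrium and 0 in the ventricle.

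Of the receptors, Rxrg showed the clearest change. It encodes RXR gamma, the RXR with the most restricted expression, known from muscle (chr1:167598384-167639623). In room air atria 1 to 5 it was at 10.2, 9.75, 9.85, 12.1 and 13.1 CPM and in hyperoxia atria 1 to 5 at 3.67, 7.14, 3.52, 5.97 and 3.68 CPM. Every hyperoxia atrium was below every room air atrium, and the 2 libraries tilted towards short transcripts, 2 and 4, were the ones nearest to room air. Rxrg fell 2.3-fold in the atrium (log2 -1.2, SE 0.2, adjusted p = 5.7e-05). The call held in 33 of 33 other fits, between -1.74 and -1.11, with the Y-linked reads as a covariate (-1.14, adjusted p = 0.0023) and without the tilted libraries (-1.6, adjusted p = 2.1e-07) among them. Room air ventricles held 11.9, 12, 8.21, 13 and 10.2 CPM and hyperoxia ventricles 6.75, 5.19, 10.4, 6.68 and 8.56 CPM. Here hyperoxia libraries 4 and 6 lay within the range of room air, and the log2 difference of -0.56 (SE 0.2) had an adjusted p of 0.07. It passed in 8 of 33 other fits, among them those without hyperoxia ventricle 4 (-0.7, adjusted p = 0.044), room air ventricle 3 (-0.65, adjusted p = 0.047) or hyperoxia atrium 2 (-0.56, adjusted p = 0.039) and the one without the tilted libraries (-0.49, adjusted p = 0.031). With the length slope held it was -0.23 (adjusted p = 0.38), and with both covariates -0.28 (adjusted p = 0.41). The responses differed by -0.64 (SE 0.28, adjusted p = 0.08), by -0.83 (adjusted p = 0.02) without hyperoxia atrium 2, by -0.75 (adjusted p = 0.044) without hyperoxia ventricle 2, and by -1.11 (adjusted p = 0.0013) without the 3 tilted libraries. The fit that holds the length slope gave -1.42 (adjusted p = 5e-04), and both covariates -1.46 (adjusted p = 6e-04).

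Rarb encodes RAR beta and spans chr14:16430839-16819156. It was at 26.8, 24.7, 27.2, 29.5 and 29.2 CPM in room air atria and at 26.4, 20.1, 25.4, 29.2 and 25.9 CPM in hyperoxia atria. Room air ventricles held 26.1, 24.3, 20.6, 18.6 and 20.9 CPM and hyperoxia ventricles 22.4, 28.2, 25.5, 22.5 and 22.2 CPM. The groups overlapped in both chambers. The log2 difference was -0.11 in the atrium (95% interval -0.33 to 0.11, adjusted p = 0.41) and 0.13 in the ventricle (95% interval -0.1 to 0.35, adjusted p = 0.45). Exons of Rarb share 1793 bases with Top2b on the opposite strand, and whether the counting used strand is not given in the sources used here, so part of these reads may belong to Top2b. The DR5 shown above lies at this gene, whose level did not pass in either chamber.

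The 6 nuclear receptor genes together gave 3 lower genes in the atrium (median log2 difference -0.3), where 24.2% of all genes were lower, and by edgeR 0 calls in the ventricle (0.08), where 1 had an unadjusted p under 0.05 and limma voom and DESeq2 each called 1, Rxrg. Besides Rxrg, the lower ones were Rxra, from 62.8 ± 1.47 to 44.9 ± 6.2 CPM (log2 -0.48, adjusted p = 0.00023), and Rarg, from 21.3 ± 2.71 to 15.3 ± 2.85 CPM (log2 -0.48, adjusted p = 0.0078). Holding the length slope, the Rarg value was -0.23 (adjusted p = 0.13), with the Y-linked reads -0.46 (0.059) and with both -0.12 (0.62), and with both the Rxra value was -0.19 (0.19). Their responses differed between the chambers, by -0.59 for Rxra (adjusted p = 0.0018) and by -0.56 for Rarg (adjusted p = 0.029), and this Rarg call was lost in 10 of 33 other fits, among them those without hyperoxia atrium 2 or 4, room air atrium 5, hyperoxia ventricle 2 or 5 or room air ventricle 4 (-0.51 to -0.47). It was also lost without the tilted libraries, with the length slope held and with both covariates. Over all other fits this Rarg value came as near to 0 as -0.06, with adjusted p of up to 0.87. The Rxra call for the difference was lost with both covariates (adjusted p = 0.079). Per kilobase of exon, Rxrg made up 10.3% ± 1.13 of the 6 receptors in room air atria and 5.28% ± 1.83 in hyperoxia atria, and 11.2% ± 2.02 and 7.65% ± 2.53 in the ventricles (SD, n = 5). Rxrb made up 25% ± 1.46 and 33.2% ± 1.06 in the atria, although its own level did not pass (log2 0.18, adjusted p = 0.061). Rara was at 36.6 ± 3.29 and 33.7 ± 2.74 CPM in the atria and at 34 ± 2.04 and 34.1 ± 5.41 CPM in the ventricles.

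**Figure D4:**
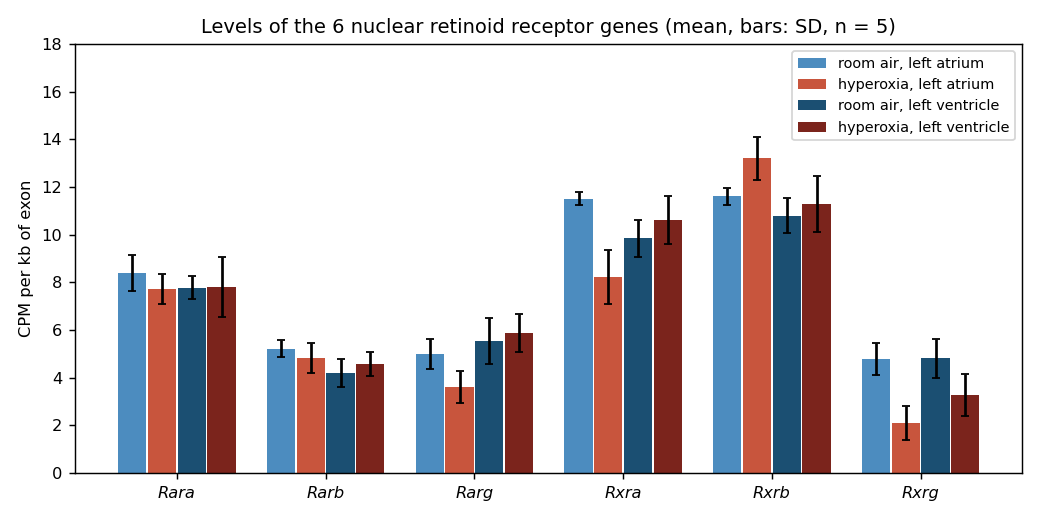
Levels of the 6 nuclear receptor genes in CPM per kilobase of annotated exon (bars from 0, mean with SD, n = 5) in the 4 groups. In the hyperoxia atria Rxrg is at 2.09, against 4.79 in room air atria, and Rxra at 8.22 against 11.5, while Rxrb is at 13.2 against 11.6.

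Coregulators and genes that respond to retinoic acid were described from 2 further lists. All 7 coregulators passed the filter, and 4 of them fell in the atrium, namely the coactivators Ncoa1, from 42.8 ± 2.82 to 29.4 ± 6.14 CPM (log2 -0.54, adjusted p = 0.00053), Ncoa2, from 50.7 ± 5.86 to 33.7 ± 9.56 CPM (log2 -0.59, adjusted p = 0.0033), and Crebbp (log2 -0.44, adjusted p = 0.00028), and the corepressor Nrip1 (log2 -0.38, adjusted p = 0.026). In the ventricle 1 rose, Ncoa2 (log2 0.48, adjusted p = 0.047), a call lost in 21 of 33 other fits, with values of 0.43 to 0.52 in the 14 of them that left out 1 library (any room air or hyperoxia ventricle other than room air 3, or any room air atrium). It was also lost without the 3 ventricles that lay apart and with the length slope, the Y-linked reads or both held. Over all other fits this value was 0.13 to 0.55, with adjusted p of up to 0.4. The median log2 difference of the list was -0.38 in the atrium and 0.25 in the ventricle, and of all genes 24.2% were lower in the former and 5.64% higher in the latter. Coregulators serve most nuclear receptors. Of 26 genes known to respond to retinoic acid 23 passed the filter, and 7 fell and 1 rose in the atrium, with a median log2 difference of -0.38. These 8 of 23 are a smaller share than the 43.9% of all genes that passed in the atrium. The 1 that rose was Tgm2, a transglutaminase gene that many other signals also induce, from 271 ± 7.93 to 653 ± 78.8 CPM (log2 1.27, adjusted p = 9.5e-10). Hic1 fell from 40.6 ± 4.39 to 21.6 ± 3.31 CPM (log2 -0.91, adjusted p = 0.00011) and Meis1 from 42.1 ± 0.84 to 28.6 ± 2.06 CPM (log2 -0.56, adjusted p = 8.8e-06), both transcription factor genes. In the ventricle 3 fell, Dhrs3, Hoxb2 (log2 -0.65, adjusted p = 0.029) and Rarres2 (log2 -0.46, adjusted p = 0.039), with a median of -0.27, where 5.28% of all genes fell. The Hoxb2 call was lost without any of room air ventricles 2 to 5 or hyperoxia ventricles 1, 5 and 6 (-0.65 to -0.59), and the Rarres2 call without any of room air ventricles 1, 3, 4 and 5 or hyperoxia ventricles 4, 5 and 6 (-0.47 to -0.38). Both calls were also lost with the length slope, the Y-linked reads or both held, and the Rarres2 call without the 3 ventricles. Over all other fits Hoxb2 was at -0.79 to -0.59 (adjusted p of up to 0.14) and Rarres2 at -0.52 to -0.17 (up to 0.38). Fibroblast markers summed to 6280 to 7210 CPM in room air atria and 3170 to 4350 CPM in hyperoxia atria. Of these 8 markers 7 were lower and 1 higher, beside 24.2% and 19.7% of all genes, and their part in these results was not tested.

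**Figure D5:**
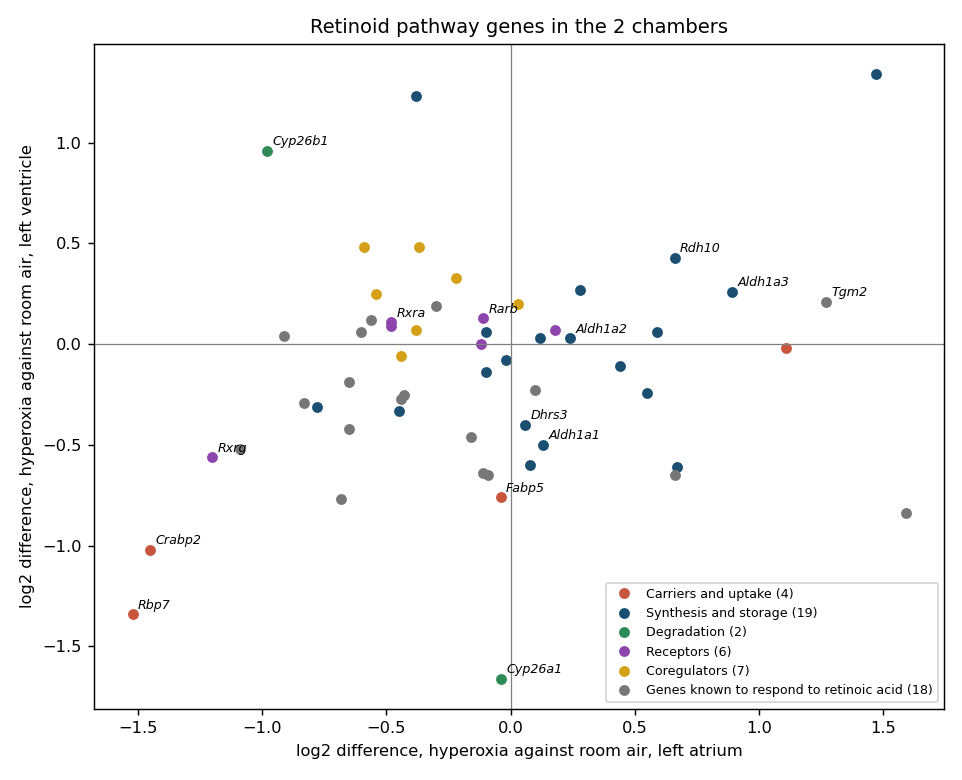
The log2 difference of hyperoxia against room air in the left atrium (horizontal) and the left ventricle (vertical) for the 56 pathway genes that passed the filter, coloured by list, each gene once under its first list. Rbp7 and Crabp2 are at the lower left, Tgm2 at the right (1.27 in the atrium), Rxrg to the left (-1.2), and Cyp26b1 alone of the named members lies left of 0 and well above it (0.96 in the ventricle).

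Chamber differences were larger than those with oxygen for several members. In room air 3 of 8 members were higher and 3 lower in the atrium than in the ventricle, where 55% of all genes passed, 28.7% higher and 26.3% lower. In hyperoxia 2 were higher and 4 lower, where 48.8% passed, 25.2% higher and 23.6% lower. The groups did not overlap for 4 of 8 members at each oxygen level, against 46.5% and 32.9% of all genes. Rbp7 was 21.9-fold lower in the atrium in room air (log2 -4.45, SE 0.28, adjusted p = 1.1e-11) and 24.7-fold lower in hyperoxia (log2 -4.63, SE 0.3, adjusted p = 2.5e-11). Of the 12 endothelial markers 9 were also lower in the room air atrium, where Pecam1 was at 347 ± 21 CPM in room air atria and 317 ± 24 CPM in room air ventricles. Crabp2 was 5.26-fold higher in the atrium in room air (log2 2.39, SE 0.5, adjusted p = 0.00034) and 3.91-fold higher in hyperoxia (log2 1.97, SE 0.54, adjusted p = 0.0044). The highest ventricle in room air was library 4, at 1.31 CPM, still below all room air atria.

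The 2 retinaldehyde dehydrogenases among the members had opposite chamber patterns. Aldh1a1 was 2.4-fold higher in the atrium in room air (log2 1.26, SE 0.19, adjusted p = 9.8e-06) and 3.71-fold higher in hyperoxia (log2 1.89, SE 0.2, adjusted p = 4.5e-08). Aldh1a2 was 1.5-fold lower in the atrium in room air (log2 -0.58, SE 0.08, adjusted p = 1.4e-06) and 1.29-fold lower in hyperoxia (log2 -0.36, SE 0.08, adjusted p = 0.00042). The Aldh1a2 pattern ran against most epicardial and mesothelial markers, of which 10 of 11 were higher in the room air atrium, beside 28.7% of all genes. The 1 that was lower there was Wt1, an epicardial transcription factor gene that developing coronary endothelium also expresses, at 16.7 ± 2.45 CPM in room air atria and 26.5 ± 1.35 CPM in room air ventricles. All calls of Rbp7, Crabp2, Aldh1a1 and Aldh1a2 between chambers held in 34 of 34 other fits. Dhrs3 (log2 -0.36, adjusted p = 0.014) and Rarb (log2 0.31, adjusted p = 0.017) differed between chambers in room air, each call lost in 3 of 34 other fits, for Dhrs3 with the length slope as a covariate (-0.14, adjusted p = 0.21) and without the 3 ventricles (-0.21, adjusted p = 0.19) among them, and for Rarb without room air ventricle 4 (0.26, adjusted p = 0.054) or hyperoxia ventricle 5 (0.22, adjusted p = 0.091) or with a filter at 1 CPM (0.22, adjusted p = 0.085). Cyp26b1 was 5.09-fold lower in the hyperoxia atrium than in the hyperoxia ventricle (log2 -2.35, SE 0.4, adjusted p = 3.7e-05), where the room air difference was -0.41 (adjusted p = 0.38), or -0.8 (adjusted p = 0.037) without the 3 ventricles that lay apart. Rxrg did not differ between chambers past the threshold in room air (log2 0, 95% interval -0.41 to 0.4, adjusted p = 0.99) and was lower in the hyperoxia atrium than in the hyperoxia ventricle (log2 -0.65, SE 0.2, adjusted p = 0.012).

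Levels of different genes were set side by side as CPM per kilobase of exon. In room air ventricles Rbp7 led with 72.7 ± 19.7, ahead of Aldh1a2 with 32.8 ± 1.88 and Dhrs3 with 16.2 ± 2.45. In room air atria Aldh1a2 led with 21.9 ± 2.04, ahead of Dhrs3 with 12.6 ± 0.819, Rarb with 5.22 ± 0.371 and Rxrg with 4.79 ± 0.663, and Rbp7 ranked 6 of 9 with 3.32 ± 0.801. Rarb and Rxrg overlapped in room air atria, as did Aldh1a1, Rbp7 and Crabp2 as neighbours. In hyperoxia ventricles Aldh1a2 (33.4 ± 2.1) and Rbp7 (28.7 ± 7.67) overlapped, so the lead of Rbp7 was no longer seen there. Cyp26b1 and Stra6 stood at the end of the order in both atrial groups and in the room air ventricles, at 0.164 or less. With the length of the longest transcript in place of all exons, Aldh1a1 moved ahead of Rxrg in room air atria (7.03 against 5.22).

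Outside the room air atria the spread within groups was smallest for Aldh1a2, whose coefficients of variation over the 4 groups were 5.72% to 9.28%. In room air atria Dhrs3, Cyp26b1, Rarb and Aldh1a1 varied less than Aldh1a2. The spread was largest for the sparse Stra6, at 51.9% to 138%. Rbp7 had 24.1% to 27% in 3 groups and 66% in hyperoxia atria, where its group total was 149 reads. Over the 20 libraries, the genes most like Rbp7 in log2 CPM were Fabp4, a lipid carrier of capillary endothelium (Pearson r = 0.994), Nostrin (0.99) and Rgcc (0.989), among 11470 genes of at least 5 CPM in some group. After the group means were taken out, r was 0.835, 0.773 and 0.697. For Rxrg they were Zfp821 (0.92), Sqor (0.91) and Rgs2 (0.909), with 0.784, 0.65 and 0.653 within groups. Aldh1a1 was most like Prss12 (0.964), Aldh1a2 like Lgals3bp (0.943), Dhrs3 like Unc119 (0.918) and Rarb like Rab6b (0.786). These libraries share chamber, oxygen level and the length tilt, so the correlations are descriptions only. Between members, the deviations of Dhrs3 and Rxrg from their group means had r = 0.63 and those of Cyp26b1 and Rxrg r = -0.71, over the same 20 libraries.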

How the data were processed

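Polyadenylated RNA was measured in 20 libraries with a stranded mRNA kit, per the labels' protocols. The authors deposited 1 table of raw counts for each library, with 1 row per gene symbol. The build GRCm38.p6 and the tools STAR 2.7.6a (an aligner), fastp 0.20.1, featureCounts, Subread 2.0.1 and Salmon 1.3.0 come from the submitters' processing notes. Annotation release and strand setting are not given in the sources used here. For RNA extraction the sample labels and the series text name different kits. The 9 members and all lists were chosen with earlier results of these data known. Counts were analysed with edgeR 4.0.16 in R 4.3.3: filterByExpr on the 4 groups, TMM scaling, a robust quasi-likelihood model with 1 coefficient per group over all 20 libraries, and Benjamini-Hochberg adjustment over 16598 genes. The test was checked on simulated data. DESeq2 1.42.0 and limma 3.58.1 were alternatives, and the Y-linked reads and length slope together were added after seeing the data. The length slope is how log2 CPM, centred on the libraries of a chamber, changes per unit of log2 exon length over 11144 genes. Named beside the members were Rbp4, Rdh10, Crabp1, Cyp26a1, Rara, Rarg, Rxra and Rxrb where they passed the filter (Crabp1 did not), up to 3 further genes per list and comparison by smallest p, and the 3 genes most like each member of at least 5 CPM. A gene of the carrier list and a gene of the coregulator list are not reported here and are left out of the counts of their lists. Dhrs9, Wt1 and Pecam1 were named after their values were seen. Positions and exon lengths are from GENCODE on GRCm38, promoters from RefSeq on GRCm38.p6. Per the labels the libraries of a group are separate mice. Floors of 3 counts cover counting error only.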

Additional observations from a re-analysis of the deposited data

Results flagged for a closer look

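In a group of 5 libraries, 1 value stood apart when its gap to the nearest other exceeded 0.71 of the range, which chance alone gives in about 1 of 20 groups. Of 148 groups of values of the members and the other named genes, 8 met this. Crabp2 was at 1.31 CPM in room air ventricle 4 and at 0.166 to 0.468 CPM in the other room air ventricles. In the same library Hic1 was at 27.3 CPM (others 44.4 to 49.2). Hyperoxia atrium 2 held Rdh10 at 12.2 CPM (others 9.7 to 10.3) and Cyp26a1 at 0.566 CPM (others 0 to 0.114). Room air atrium 4 held Dgat1 at 25.5 CPM (others 20.3 to 21.4) and Nrip1 at 22.5 CPM (others 29.4 to 30.7). Crebbp was at 39.4 CPM in hyperoxia atrium 4 (others 44.8 to 47), and Zfp703 at 15.2 CPM in hyperoxia ventricle 2 (others 12.9 to 13.5).

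The response to hyperoxia differed between atrium and ventricle for 2 members by edgeR's test of the difference, with log2 values of 0.46 for Dhrs3 and -1.94 for Cyp26b1. Among the other named genes the atrial response was above the ventricular one for Fabp5 (0.72), Adh5 (0.54), Dgat1 (0.54), Lpl (0.79) and Tgm2 (1.06). It was below for Rarg (-0.56), Rxra (-0.59), Crebbp (-0.38), Ncoa1 (-0.79), Ncoa2 (-1.07), Ep300 (-0.85), Meis1 (-0.68), Hic1 (-0.95) and Zfp703 (-0.65). Over all genes tested, 36.5% passed this test, and 15.9% did with the length slope held. In that fit the calls of Dhrs3, Cyp26b1, Fabp5, Dgat1, Lpl, Rarg, Ep300 and Hic1 were lost. The members Rbp7, Aldh1a2 and Rxrg passed in it instead. Over all other fits the value nearest to 0 was 0.08 for Fabp5, 0.07 for Dgat1, 0.01 for Lpl and -0.08 for Ep300. Tgm2, Meis1, Ncoa1 and Ncoa2 kept their calls in 33 of 33 other fits.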

How the results depend on the processing

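The number of members past the threshold was 4 in the atrium with hyperoxia and 4 to 6 when each library was left out in turn, but 2 with the Y-linked reads as a covariate. Of all genes, 43.9% passed there, 38% to 46.2% with libraries left out and 35.4% with the Y-linked reads. In the ventricle the number of members was 2, with 1 to 3 when libraries were left out, 0 without the 3 ventricles that lay apart, 4 with limma voom and quality weights, and 1 with no filter, the length slope, the Y-linked reads, or both covariates. The share of all genes there was 10.9%, with 5.5% to 15% when libraries were left out, 1.81% without the 3 ventricles and 17.9% with limma voom. It was 3.22% with no filter, 12.3% with the length slope, 1.53% with the Y-linked reads and 6.19% with both covariates. For the difference between responses the number of members was 2, with 1 to 3 when libraries were left out, 1 with no filter or without the 3 ventricles, and 4 with a filter at 1 CPM, DESeq2 or limma voom. With the length slope held, the members that passed were Rbp7, Aldh1a2 and Rxrg in place of Dhrs3 and Cyp26b1. The share of all genes was 36.5%, with 30.6% to 39.6% when libraries were left out, 16% with no filter and 27.3% without the 3 ventricles. It was 40.9% with a filter at 1 CPM, 39.6% with DESeq2 and 38.1% with limma voom. Between chambers 6 members passed in room air (5 to 6 in all other fits) and 6 in hyperoxia in all of them. Of all genes, 55% passed in room air (27.7% to 64.2% in the other fits) and 48.8% in hyperoxia (24.5% to 59.8%). The cause of these changes was not tested. In the atrium, the calls of the lists ranged over 1 to 3 for carriers (2 in the reported fit), 7 to 13 for synthesis (10), 1 to 4 for receptors (3), 3 to 5 for coregulators (4) and 5 to 12 for responsive genes (8), and in the ventricle over 1 to 3 (2), 0 to 5 (3), 0 to 1 (0), 0 to 4 (1) and 0 to 6 (3). Over the same fits the share of all genes that passed ranged over 20.2% to 55.4% in the atrium and 1.53% to 19.4% in the ventricle.

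Values whose sign turned were, with 1 exception (the Adh5 difference), not past the threshold to begin with. For Rxrg between chambers in room air (0) they were 0.01 with no filter or either replicate block, 0.02 with voom, 0.06 without the tilted libraries, 0.12 without the 3 ventricles, 0.36 with the length slope, 0.38 with both covariates and -0.1 to 0.06 with libraries left out. Dhrs3 in the atrium was -0.1 with voom, -0.13 without the tilted libraries, -0.19 with the length slope and -0.08 to 0.14 with libraries left out, and Dhrs3 between hyperoxia chambers -0.1, -0.09, -0.13, -0.07 with both covariates, and -0.04 to 0.15. Aldh1a2 in the ventricle was 0 with voom and without the 3 ventricles, and -0.03 with the length slope or both covariates. Aldh1a1 in the atrium was -0.05 with the Y-linked reads and -0.01 with both covariates. Crabp2 in the ventricle was 0.11 without the 3 ventricles, and the difference between responses spanned -1.07 to 0.38 for Crabp2 and -0.59 to 0.01 for Rbp7 with libraries left out. Rara in the ventricle was -0.01 with RLE scaling or DESeq2, -0.02 with upper-quartile scaling, 0 with a filter at 1 CPM, -0.03 without the tilted libraries and -0.05 to 0.09 with libraries left out, and its difference -0.21 to 0. Cyp26a1 in the atrium was 0.01 with upper-quartile scaling, 0.74 with the Y-linked reads, 0.16 with the replicate block, 0.08 with both covariates and -1.39 to 0.72 with libraries left out. Rbp4 in the ventricle was 0.07 without the tilted libraries, 0.06 with the length slope, 0.1 with the replicate block and -0.46 to 0.27. Rarg in the ventricle was 0 without the tilted libraries, -0.12 with the length slope, -0.06 with both covariates and 0 to 0.16. The Adh5 difference was -0.03 with the length slope and -0.06 with both covariates.

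Libraries with the same number in 2 groups had correlations of their deviations of -0.133 to 0.285, and 20 of 36 correlated best with their own number. Between atrium and ventricle at 1 oxygen level it was 7 of 10 in room air (r 0.042 to 0.285) and 7 of 8 in hyperoxia (0.031 to 0.139), and between oxygen levels 3 of 10 in the atrium and 3 of 8 in the ventricle. In hyperoxia, Xist reads prevailed in libraries 1, 4 and 5 of both chambers and Y-linked reads in library 2 of both. Since not every pair exceeded an r of 0.1, the numbers were not taken to pair the libraries. The labels do not say whether an atrium and a ventricle of 1 number are from the same mouse. If they are, the reported tests between chambers and of the difference treat libraries of 1 mouse as independent. With the number as a replicate block, 5 members passed in the atrium, 3 in the ventricle, 2 for the difference and 6 between chambers at each oxygen level. Of all genes, 46.7% passed in the atrium, 15.6% in the ventricle and 41.5% for the difference, and between chambers 57% in room air and 49.4% in hyperoxia. With the assumed animal as the block, 3 members passed for the difference (Rxrg added, -0.67, adjusted p = 0.041) and 6 between chambers at each oxygen level. Of all genes it was 40.9% for the difference, 58% in room air and 52.1% in hyperoxia. The fit with only the libraries compared gives no value for the difference. Depth limits Stra6, Cyp26b1 and the ventricular Crabp2.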

Other observations

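Retinoid pathway genes outside the 9 members also differed between the chambers. Of the 23 genes known to respond to retinoic acid that passed the filter, 9 were higher and 7 lower in the room air atrium than in the room air ventricle, and 7 were higher and 7 lower under hyperoxia. Of all genes, 28.7% were higher and 26.3% lower in room air, and 25.2% higher and 23.6% lower under hyperoxia. Nr2f2, a nuclear receptor gene of atrial cardiomyocyte identity and veins, was at 62 ± 4.03 CPM in room air atria and 28.9 ± 3.88 CPM in room air ventricles (SD, n = 5; log2 1.1, edgeR adjusted p = 2.3e-09), and at 45.6 ± 2.03 and 24 ± 2.9 CPM under hyperoxia. Rarres2, which encodes the secreted chemoattractant chemerin, was at 98.8 ± 8.22 and 45.9 ± 5.22 CPM in room air (log2 1.11, adjusted p = 6.9e-07). Zfp703 was at 27.6 ± 3.48 and 13.1 ± 2.54 CPM (log2 1.07, adjusted p = 3e-07). All 3 calls were kept in 34 of 34 other fits.

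Among the 19 synthesis and storage genes that passed the filter, 4 were higher and 9 lower in the room air atrium, beside 28.7% and 26.3% of all genes. Aldh1a3 was at 7.49 ± 0.672 CPM in room air atria and 3.04 ± 0.543 CPM in room air ventricles (log2 1.3, adjusted p = 3.3e-06), the same direction as Aldh1a1 and the opposite of Aldh1a2. Lipe, the gene of hormone-sensitive lipase, which also frees retinol from its esters, was at 18 ± 1.2 and 42 ± 3.21 CPM (log2 -1.22, adjusted p = 5.7e-09), and Dhrs4, a reductase gene, at 38.3 ± 2.21 and 69.6 ± 9.63 CPM (log2 -0.86, adjusted p = 2e-06). Lipe, Zfp703, Nr2f2 and Rarres2 share exonic bases with another annotated gene.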
